A study of Mus musculus with 14 samples.

Results

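The peaks described here are the intergenic H3K27me3 peaks of mouse primary hippocampal neurons that lay far from gene starts. A peak was taken when it was narrower than 2000 bp, overlapped no annotated gene body of any type, and lay more than 50 kb from the start of every protein-coding gene (GENCODE annotation of mm10, the name of the mouse assembly GRCm38). These criteria held for 5109 of the 23668 peaks in the authors' table, or 21.6%. Of the 23642 peaks on chromosomes, 22949 were narrower than 2000 bp, 10640 of those lay outside all gene bodies, and 5109 of those were far enough from a gene start. Near the limits, the closest peaks taken lay 50005 and 50026 bp from a gene start and the closest left out lay 49973 and 49960 bp away. The widest peaks taken measured 1973 and 1928 bp, and the narrowest left out by their width alone measured 2012 and 2137 bp.

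To ask whether loss of the long non-coding RNA NeuID alters this histone mark, the study compared cultures given control gapmers with cultures given NeuID gapmers, using chromatin immunoprecipitation followed by sequencing (ChIP-seq) with an antibody to H3K27me3. Gapmers are short modified antisense oligonucleotides that lead to cleavage of the RNA they pair with, and in both groups they were delivered in lipid nanoparticles, so the control cultures were treated too. The cells had the genotype WT and came from CD1 embryos of mixed-sex litters, taken at E17, so they are embryonic neurons matured in a dish. The labels list 6 control and 6 NeuID knockdown (KD) ChIP libraries and 1 input library for each group. They do not say whether the libraries came from separate cultures or litters. For each peak the authors gave a log2 mean of normalized reads for each group, and single libraries were not analysed here. There is therefore no SD between libraries, n of libraries or test beside any value below. A difference cannot be set against the spread between libraries, and any SD below is across peaks. The authors' overall mean was a weighted sum of the group means with a control weight of 0.545, the weight that 6 control and 5 KD libraries give, whereas the labels list 6 of each. For its principal component analysis of this ChIP-seq the paper states 5 per group, so the number of libraries behind each mean is not certain. The depth per library is unknown from these values, and the neuronal identity of the cultures could not be checked against marker genes, since only ChIP means were used.

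H3K27me3 is the trimethylated form of lysine 27 on histone H3. It is written by Polycomb repressive complex 2 (PRC2), whose catalytic subunit is EZH2 or EZH1, and it marks chromatin in which transcription is held down. In mammals PRC2 is found mostly at CpG islands, stretches rich in unmethylated CpG dinucleotides, many of which are promoters of developmental transcription factors. The mark can spread away from such sites, and the gene-poor stretches around developmental regulators, often called gene deserts, also hold many of their distant enhancers.

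Several of these regions are shown first, because the results below turn on them. The stretches are the central 200 bp of each peak on the plus strand of GRCm38, named by the protein-coding genes on either side, with CpG dinucleotides in capitals. The first 3 are from the peaks with the most reads.
Nrf1–Ube2h, chr6:30177821-30178020: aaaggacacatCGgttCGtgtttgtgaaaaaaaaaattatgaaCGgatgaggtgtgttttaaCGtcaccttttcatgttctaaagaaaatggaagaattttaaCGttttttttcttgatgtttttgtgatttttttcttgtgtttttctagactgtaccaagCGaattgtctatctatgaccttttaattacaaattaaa
Npvf–Nfe2l3, chr6:51172410-51172609: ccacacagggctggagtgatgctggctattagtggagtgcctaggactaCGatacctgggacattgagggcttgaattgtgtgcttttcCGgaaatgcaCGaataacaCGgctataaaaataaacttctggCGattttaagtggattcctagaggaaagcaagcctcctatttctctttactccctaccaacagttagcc
Gm9376–Abcc4, chr14:118437467-118437666: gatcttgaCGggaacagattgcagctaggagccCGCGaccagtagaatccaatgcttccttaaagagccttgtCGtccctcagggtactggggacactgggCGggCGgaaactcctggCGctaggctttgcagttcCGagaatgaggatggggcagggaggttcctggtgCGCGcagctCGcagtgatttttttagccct
The next stretch is from the strongest peak in the desert with the most peaks, between the homeobox genes Irx1 and Irx2.
Irx1–Irx2, chr13:72302137-72302336: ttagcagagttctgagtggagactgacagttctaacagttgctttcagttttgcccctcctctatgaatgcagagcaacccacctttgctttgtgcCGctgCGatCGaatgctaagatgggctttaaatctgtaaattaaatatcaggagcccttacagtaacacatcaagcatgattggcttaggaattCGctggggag
Further stretches come from well-covered peaks with far fewer reads in the KD than in the control.
Hlf–Stxbp4, chr11:90442239-90442438: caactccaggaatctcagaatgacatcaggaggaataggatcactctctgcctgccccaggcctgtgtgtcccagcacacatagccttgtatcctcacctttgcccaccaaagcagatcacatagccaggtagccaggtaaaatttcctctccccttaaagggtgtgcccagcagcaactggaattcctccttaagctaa
Rbm19–Lhx5, chr5:120281125-120281324: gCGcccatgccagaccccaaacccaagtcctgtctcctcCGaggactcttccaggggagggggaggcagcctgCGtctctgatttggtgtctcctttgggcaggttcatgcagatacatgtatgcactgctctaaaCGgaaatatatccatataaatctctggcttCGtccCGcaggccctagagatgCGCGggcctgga
Another comes from the well-covered peak with the largest difference in the other direction, and the last from the peak farthest from any protein-coding gene start.
Sulf2–Prex1, chr2:166542531-166542730: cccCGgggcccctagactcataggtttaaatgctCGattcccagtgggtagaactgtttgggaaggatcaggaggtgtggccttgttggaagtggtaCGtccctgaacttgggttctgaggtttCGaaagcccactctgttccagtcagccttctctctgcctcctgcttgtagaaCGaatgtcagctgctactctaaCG
Pcdh20–Pcdh9, chr14:91460984-91461183: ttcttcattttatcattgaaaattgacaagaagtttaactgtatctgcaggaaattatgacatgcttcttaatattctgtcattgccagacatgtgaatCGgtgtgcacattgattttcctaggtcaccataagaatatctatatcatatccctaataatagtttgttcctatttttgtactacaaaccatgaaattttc
These windows held 6, 5, 11, 4, 0, 8, 6 and 1 CpG dinucleotides in the order shown. The window between Gm9376 and Abcc4 was the richest, whereas the peak beside Hlf, which had fewer reads in the KD, had no CpG in its centre.

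The far intergenic peaks were somewhat narrower and weaker than the 17840 other peaks under 2000 bp on chromosomes. Their median width was 386 bp against 432 bp, and the median of the linear mean of both groups was 6.72 normalized reads against 7.75. A mean of 16 normalized reads was reached by 210 of them, or 4.11%, compared with 13.5% of the other peaks under 2000 bp. The median distance to a protein-coding gene start was 155684 bp, with quartiles of 88366 and 286987 bp. Genes that code for no protein could be nearer: 449 peaks (8.79%) lay within 5 kb of the start of some annotated gene, while 659 (12.9%) lay more than 100 kb from the start of any annotated gene.

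Their sequence was not that of CpG islands. The median GC content was 47.1%, against 49.6% for the other peaks under 2000 bp and 58.4% for promoter peaks, those within 1 kb of a gene start. The median density was 0.904 CpG per 100 bp, against 4.52 in promoter peaks, 1.27 in peaks over the rest of gene bodies and 1.03 in intergenic peaks closer than 50 kb to a start. A peak was called island-like when it was at least 200 bp wide with a GC content of at least 50% and a ratio of observed to expected CpG of at least 0.6. By that measure 40 far intergenic peaks (0.783%) were island-like, compared with 40.7% of promoter peaks and 5.43% of other gene body peaks. The peaks were nevertheless richer in GC than the ground they lay in. The eligible sequence, meaning all sequence outside gene bodies and more than 50 kb from a protein-coding start, had a GC content of 39.7% and 0.634 CpG per 100 bp, and 88.7% of the peaks were above the first value and 65.2% above the second. Repeat-masked bases made up a median of 12.1% of a peak and 44.0% of the eligible sequence. Reads of 50 bp map poorly to repeats, and the part of that in these shares was not tested. Simple repeats were about as frequent as in other peaks. The central 200 bp held CACACACACACA or its reverse complement TGTGTGTGTGTG in 2.09% of the far intergenic peaks and in 2.10% of the other peaks under 2000 bp. The purine repeat GAGAGAGAGAGA or TCTCTCTCTCTC was found in 0.979% and 0.785%.

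**Figure D1:**
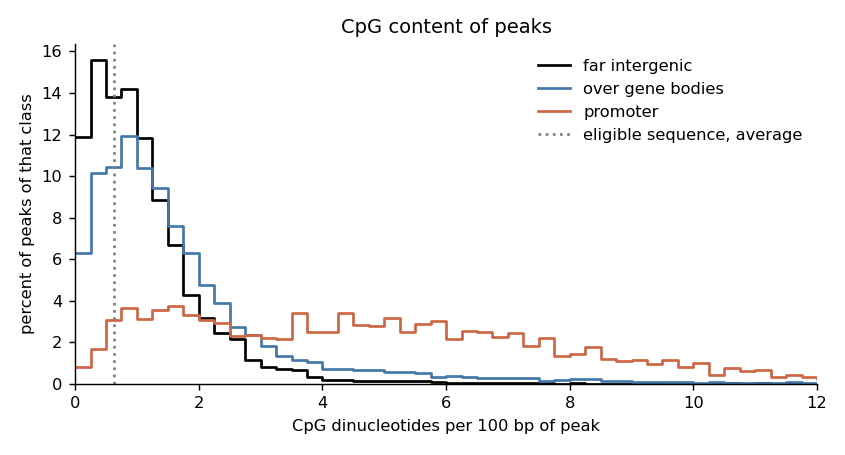
Density of CpG dinucleotides per 100 bp (x axis) against the percent of peaks in each class (y axis) for far intergenic peaks, peaks over gene bodies and promoter peaks; the dotted line is the average of eligible sequence, 0.634. The far intergenic peaks crowd at the low end with a median of 0.904, while promoter peaks spread to higher densities with a median of 4.52.

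Peaks thinned out with distance from protein-coding gene starts. The eligible sequence amounted to 965.2 Mb, or 36.5% of the genome, and held 5.29 far intergenic peaks per Mb, compared with 10.6 other peaks under 2000 bp per Mb in the rest. Between 50 and 100 kb from a gene start there were 8.26 peaks per Mb, between 100 and 200 kb 7.03, and between 200 and 500 kb 4.94. Between 500 and 1000 kb the density was 2.41 per Mb, and beyond 1000 kb it was 1.10, where 86 peaks remained. The median of normalized reads went the same way, from 7.09 in the nearest bin to 4.99 in the farthest, as did median GC content, from 48.2% to 42.0%. Among chromosomes, chromosome Y held 0 of these peaks, although 68.2 Mb of it counted as eligible sequence. The density was next lowest on chromosome X with 2.49 per Mb (189 peaks) and chromosome 3 with 2.88. It was highest on chromosomes 7, 11 and 19 with 9.60, 8.82 and 8.54. The litters were of mixed sex, so the share of X and Y in each library is not known.

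The peaks were also unevenly spread between deserts. A desert is here the stretch between neighbouring protein-coding gene bodies. Of 3884 deserts with eligible sequence, 1420 held at least 1 far intergenic peak and 594 held exactly 1. By contrast, 102 deserts held 10 or more peaks each, and these had 1950 peaks, or 38.2% of the total, in 6.09% of the eligible sequence. Another listed peak lay within 5 kb of 1694 of them (33.2%) and within 1 kb of 15.1%, compared with 31.3% within 1 kb for all other peaks. The median gap to the nearest peak was 16.2 kb against 5.01 kb. So these peaks were more isolated than the rest, but many still came in runs.

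The desert with the most peaks lay between Irx1 and Irx2 on chromosome 13. Both genes encode Iroquois homeobox transcription factors, which pattern the neural tube and other tissues. The desert spans 665.1 kb (chr13:71963724-72628819) and held 55 far intergenic peaks covering 33.6 kb. Of these, 44 lay in a block of 114 kb near the middle, chr13:72259101-72373383, and the other 11 were scattered on both sides of it. The block was picked out after its positions were seen. The first of the 55 peaks is 62.7 kb from the Irx1 start and the last is 516 kb from it. The desert held 74 listed peaks in all, and peaks within 50 kb of a protein-coding gene start are left out of the 55 by the rule.

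Within this desert the authors' control means ran from 0 to 5.75 with a median of 3.53 on the log2 scale, and the KD means from 0 to 5.56 with a median of 3.10. The strongest peak, chr13:72301437-72303035, whose centre is printed above, had log2 means of 5.75 in the control and 5.25 in the KD. The nearest far intergenic peaks on either side of it had 4.24 and 4.06, and 4.31 and 3.93, and so were also lower in the KD. Of the next strongest peaks of the desert, chr13:72298370-72300155 had 5.09 in the control and 5.56 in the KD, and chr13:72294745-72296642 had 5.36 and 4.86. Farther along, chr13:72362937-72363656 had 4.41 in the control and 1.27 in the KD, whereas chr13:72263352-72263874 had 1.30 and 3.82. The peak chr13:72273545-72274413 was listed at 0 in the control and at 4.55 in the KD, and chr13:72291816-72292391 was listed at 4.23 in the control and 0 in the KD. A group is listed at 0 when its mean was no more than 1 normalized read, and no fold is given against it. These members of the desert, apart from the strongest and the peak at 0 in the control, were chosen after their values were seen.

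Summed over the 55 peaks, the desert had 728 normalized reads in the control and 610 in the KD, or 83.8% of the control. The sum for the central block was 626 and 540 (86.2%), with means per peak of 14.2 and 12.3 reads. Outside it the sum was 102 and 70.5 (69.1%), with means of 9.27 and 6.41. Of the 52 peaks with both groups above 0, 33 were lower in the KD, and the median difference (KD minus control, log2) was −0.35. The difference reached 2-fold downward at 17 of the 55 peaks and upward at 7. Over all far intergenic peaks these counts were 924 of 5109 (18.1%) lower and 971 (19.01%) higher by at least 2-fold with both groups above 0. Over all 23668 listed peaks the shares were 17.3% lower and 17.1% higher, which is the background against which the counts for each desert below can be read.

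**Figure D2:**
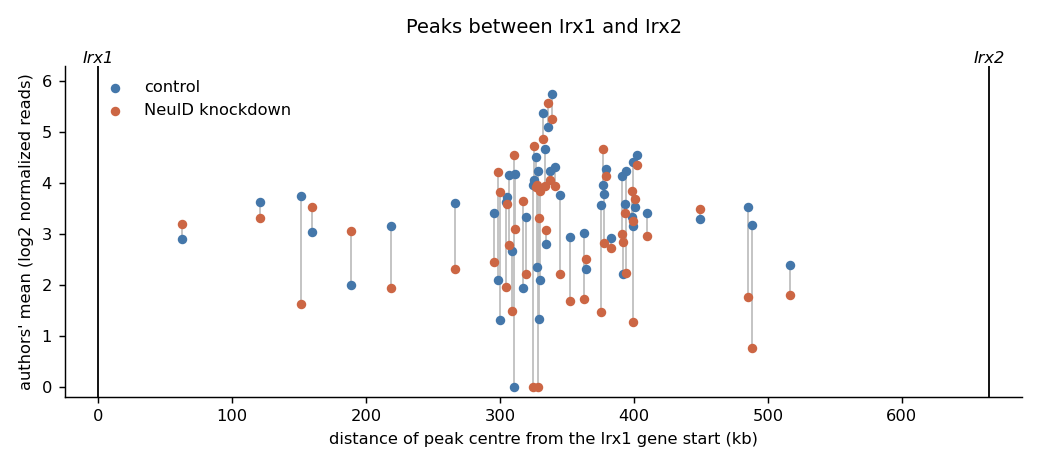
Far intergenic peaks between Irx1 and Irx2 by distance of the peak centre from the Irx1 gene start (x axis, kb) and the authors' log2 group mean of normalized reads (y axis), with control and NeuID knockdown points of a peak joined by a line; the vertical lines are the gene starts. Most of the 55 peaks stand in a block of 114 kb, and 33 of the 52 with both groups above 0 were lower in the knockdown.

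Further deserts completed the list of the 10 with the most peaks. Together these 10 held 452 far intergenic peaks (8.85%) in 0.676% of the eligible sequence, and their flanking genes had varied functions. Eligible sequence in these deserts had a GC content of 45.9% and 23.4% repeat-masked bases, against 39.7% and 44.0% for all eligible sequence. The part of this composition in the number of peaks was not tested.

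Developmental transcription factors bordered 4 of them, counting Prox1, which was not in the list of families used below. Between Med13l, a subunit of the Mediator coactivator, and Tbx3, a T-box factor of limb and hypothalamic development, 44 peaks on chromosome 5 had a sum of 434 normalized reads in the control and 336 in the KD (77.3%). Of these, 10 were lower and 6 higher by at least 2-fold, and the strongest, chr5:118877470-118879300, had log2 means of 5.49 and 4.79. In the shorter desert between Lhx1, a LIM homeobox factor, and Mrm1, a mitochondrial RNA methyltransferase, 41 peaks had 487 and 428 reads (87.8%), with 11 lower and 8 higher. Its strongest peak, chr11:84642190-84643556, went from 5.24 to 4.58. Beside Prox1, the homeobox gene that marks dentate granule neurons of the hippocampus, 43 peaks lay before Rps6kc1 with sums of 376 and 376 reads (99.8%). There the summed reads of the groups were closest, with 3 peaks lower and 6 higher by 2-fold and a median difference of 0.02.

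Genes of other kinds bordered the rest. The desert between Grik3, which encodes a kainate-type glutamate receptor subunit, and Csf3r, the receptor for granulocyte colony-stimulating factor, held 39 peaks with 330 and 363 reads (110%), of which 6 were lower and 9 higher. Between Nphp4, a ciliary protein, and Ajap1, an adherens junction protein, 41 peaks had 333 and 366 reads (110%), with 3 lower and 13 higher and a median difference of 0.65, the highest of the 10. Between Hs3st4, a heparan sulfate sulfotransferase expressed in neurons, and Kdm8, 51 peaks had 468 and 418 reads (89.4%), with 11 in each direction. The desert between Fam19a5, a secreted brain-enriched protein, and Zdhhc25 held 52 peaks with 413 and 373 reads (90.5%), with 7 lower and 5 higher. It contained chr15:88250428-88250967, listed at 4.35 in the control and at 0 in the KD.

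The remaining deserts lay between Vrk1, a serine/threonine kinase, and 3110018I06Rik (48 peaks, 413 and 450 reads, 109%) and between Mki67, the proliferation marker, and Mgmt, a DNA repair enzyme (38 peaks, 309 and 319 reads, 103%). The first had 8 peaks lower and 12 higher, and the second 8 in each direction. Its strongest peak, chr7:136583179-136584089, was nearly level at 4.61 and 4.50, whereas the strongest peak beside Vrk1, chr12:106379363-106380693, had 5.37 in the control and 4.30 in the KD although the sum of that desert was higher in the KD. Across the 10 deserts 84 peaks were lower (18.6%) and 85 higher (18.8%), near the background shares of 17.3% and 17.1%. The summed KD reads were below the control in 6 of the 10 and above it in 4.

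**Figure D3:**
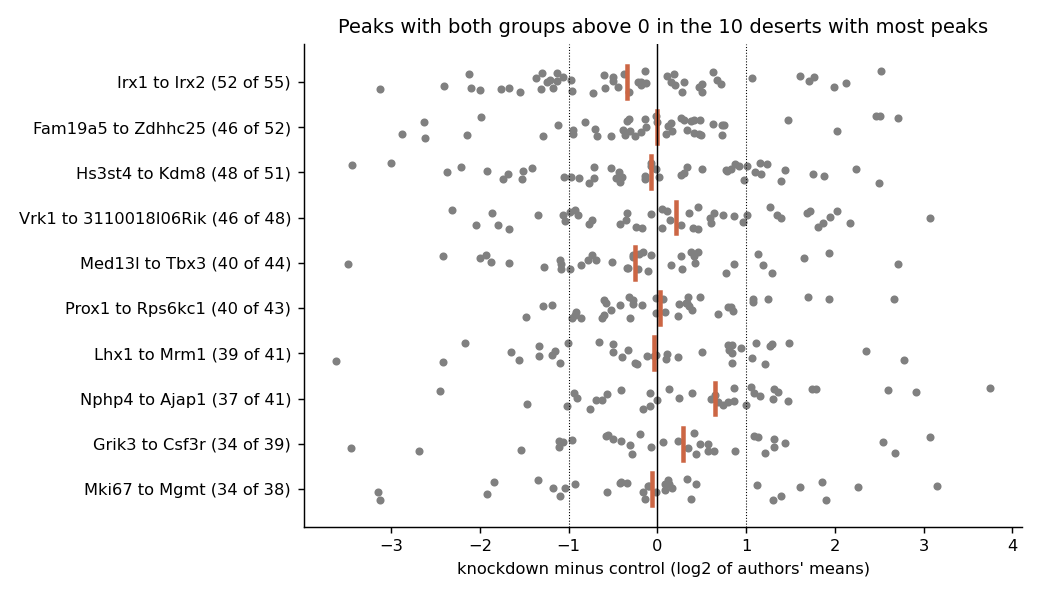
Difference of the authors' log2 group means, knockdown minus control (x axis), for each far intergenic peak with both groups above 0 in the 10 deserts with the most peaks (y axis, with the number plotted of all peaks in the desert); red bars are medians and dotted lines mark 2-fold differences. The medians run from −0.35 at Irx1–Irx2 to 0.65 at Nphp4–Ajap1, and in every one of these deserts single peaks lie beyond 2-fold on both sides.

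By density the order was different. The densities here are per Mb of desert length, not of eligible sequence. Among deserts with at least 5 peaks, the densest was the 12.1 kb between Tox2, an HMG-box factor, and Jph2, a junctophilin, with 414 peaks per Mb. It held only 5 peaks, of which 3 were at least 2-fold higher in the KD. The next was the 159 kb between Uncx, a homeobox factor of somites and brain, and Micall2, with 202 per Mb. Its 32 peaks had 466 and 424 reads (91.0%), and its strongest, chr5:139673667-139675382, had log2 means of 5.34 and 4.62, while 3 peaks were at least 2-fold lower and 5 higher. Nkx1-1–Fam53a (156.3 per Mb, 26 peaks) and Mbip–Nkx2-1 (145 per Mb, 27 peaks), each bordered by an NK homeobox factor, had KD sums of 79.7% and 80.0% of the control. In the former 11 peaks were at least 2-fold lower and 4 higher, and in the latter 7 and 3. Lemd2–Grm4 (156.0 per Mb, 34 peaks), beside a metabotropic glutamate receptor gene, had a KD sum of 99.9% of the control, with 4 in each direction. Per Mb of eligible sequence Tox2–Jph2 again had 414, Uncx–Micall2 345, Mbip–Nkx2-1 299, Lemd2–Grm4 286 and Nkx1-1–Fam53a 272.

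The flanking genes were next grouped by family. Deserts with a developmental transcription factor of the Hox, Dlx, Irx, Nkx, Lhx, Pax, Fox, Sox, Tbx or Gata families, or a relative of Six3, on at least 1 side made up 2.48% of the eligible sequence and held 593 far intergenic peaks (11.6%). That amounted to 24.8 peaks per Mb, compared with 4.80 elsewhere. The remainder includes deserts beside developmental factors outside these families, such as Prox1, Uncx, Barhl2 and Isl1. In the deserts beside the listed families, eligible sequence had a GC content of 42.0% and 31.7% repeat-masked bases, against 39.7% and 44.0% for all eligible sequence. Neuronal adhesion and guidance genes, such as cadherins, protocadherins, contactins and semaphorins, border some of the longest deserts. Those deserts made up 13.2% of the eligible sequence but held 285 peaks (5.58%), or 2.23 per Mb against 5.76 elsewhere, and their GC content was lower, at 37.7%. Deserts beside sensory receptor genes, which are mostly olfactory and vomeronasal receptors, held 27 peaks, or 3.09 per Mb. Repeat-masked bases made up 41.9% of the eligible sequence beside adhesion and guidance genes and 53.9% beside sensory receptor genes. The part of repeats in these densities was not tested.

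**Figure D4:**
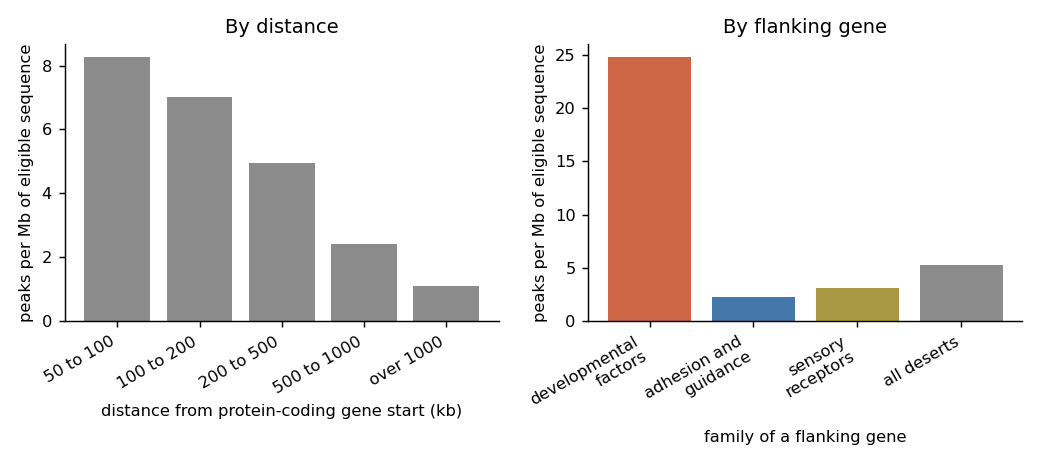
Far intergenic peaks per Mb of eligible sequence (y axes, bars from 0) by distance from the nearest protein-coding gene start (left, kb) and by family of a flanking gene (right). Density goes from 8.26 in the nearest bin to 1.10 beyond 1000 kb. It is 24.8 beside developmental factors of the listed families, against 2.23 beside adhesion and guidance genes and 5.29 in all deserts.

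Beside developmental factors of the families listed, the KD was lower more often than it was higher. Of the 593 peaks, 145 (24.5%) were at least 2-fold lower and 106 (17.9%) higher, the median difference was −0.11, and the KD sum was 92.8% of the control (means of 10.6 and 9.81 reads per peak, 313 kb covered). The other 4516 peaks, which include those beside developmental factors outside these families, had 17.2% lower and 19.2% higher. Their median difference was 0.02 and their KD sum was 100.7%. The peaks beside developmental factors were also wider and stronger, with median widths of 450 and 379 bp and medians of 8.24 and 6.53 reads. Among peaks with a mean of at least 8 reads, 20.5% beside developmental factors and 17.2% of the others were lower, and 16.1% and 16.6% were higher. Below 8 reads the shares lower were 29.2% and 17.3%. Without the desert between Irx1 and Irx2, 23.8% were lower and 18.4% higher, and without all deserts beside Irx genes 23.9% and 18.4%. These splits were chosen after the data were seen, and none matched the peaks by width. Over all far intergenic peaks the widest 5th had 22.3% lower and 12.9% higher, and the part of width here was not tested.

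The deserts beside developmental factors did not all go one way. Of the 18 with at least 10 peaks, 11 had a KD sum below the control, and the median was 90.4%. Of all 102 deserts of that size 60 were below the control, a similar share, with a median of 94.0%. The deserts on both sides of Foxb1, a forkhead factor of the developing hypothalamus and midbrain, stood at 72.5% (25 peaks, 9 lower and 4 higher) and 70.9% (17 peaks, 10 lower and 1 higher). They were chosen after their values were seen, and without them the share lower was 22.9%. Between Gpat3 and Nkx6-1, a factor of motor neuron and pancreatic fate, 34 peaks summed to 84.4%. In the opposite direction, the desert between Irx3 and Irx5, the Iroquois genes on chromosome 8, held 27 peaks with a KD sum of 117% and a median difference of 0.45, although 6 peaks were lower and 6 higher by 2-fold. On chromosome 13, Irx2–Irx4 (15 peaks) had a KD sum of 103% and a median of −0.48, with 3 in each direction. Sox14–Il20rb (19 peaks) had a KD sum of 113% but a median difference of −0.25. Hoxc4–Smug1, beside the HoxC cluster, had 12 peaks and 105%.

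Adhesion and guidance deserts had 64 of their 285 peaks lower (22.5%) and 57 higher. Both shares were above the background shares of 17.3% and 17.1%, and the share lower was near that beside developmental factors. These peaks were narrower and weaker than the far intergenic peaks as a whole. Their medians were 334 bp and 5.61 reads, against 386 bp and 6.72 reads. The KD sum of these deserts was 99.8% of the control. Of the 5 with at least 10 peaks 1 was below the control, with a median of 134%. Beside sensory receptor genes 4 of 27 peaks were lower and 7 higher. Over the 102 deserts with at least 10 peaks, 46 had more peaks lower than higher and 37 the reverse, and the median difference was below 0 in 51. The KD sum ran from 56.0% of the control at N4bp1–Cbln1 (10 peaks) to 180% at Map3k1–Ankrd55 (10 peaks), with a median of 94.0%. These extremes, chosen after their values were seen, are deserts with few peaks.

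Over all far intergenic peaks the group means were nearly level. The median log2 mean was 2.76 in the control and 2.79 in the KD, and the median difference over the 4658 peaks with both groups above 0 was 0.0053, compared with −0.02 for all listed peaks. Summed reads were 39821 in the control and 39615 in the KD, or 99.5%, over 2220 kb, with means of 7.79 and 7.75 per peak. The other peaks under 2000 bp stood at 98.6%, and the 693 peaks of 2000 bp or wider at 91.8%. Single peaks spread widely around the middle. The SD of the difference across peaks was 1.28, against 1.22 for other peaks under 2000 bp, and the quartiles were −0.78 and 0.81. In the KD 240 peaks (4.70%) were listed at 0, and in the control 211 (4.13%), where the shares over all listed peaks were 3.35% and 3.28%. Zeros were most frequent among weak peaks, and the far intergenic peaks were weaker than the others. In the weakest of 5 bins of strength 9.56% were listed at 0 in the KD and 7.66% in the control. All other peaks of that bin had 8.36% and 8.03%. In the next bin the shares were 5.47% and 5.55%, against 4.96% and 4.50%. The SD was 1.32 against 1.31 in the weakest bin and 0.97 against 0.82 in the strongest. Neighbouring peaks shared little of their differences. Spearman's rho between the differences of adjacent peaks was 0.09 over 416 pairs less than 1 kb apart, 0.07 over 607 pairs 1 to 5 kb apart and close to 0 (−0.0029) over 1261 pairs 5 to 50 kb apart. Such pairs share the same libraries, so these values are a description.

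**Figure D5:**
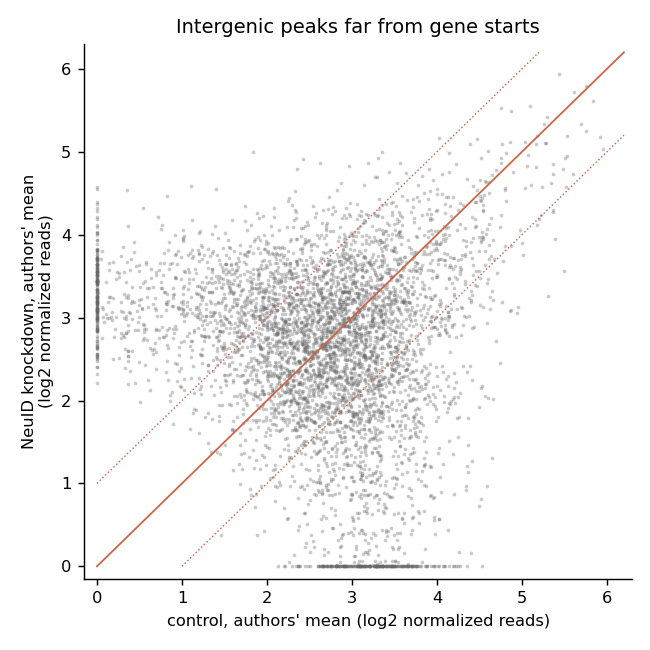
Authors' log2 mean of normalized reads in the control (x axis) and the NeuID knockdown (y axis) for the 5109 far intergenic peaks; the solid line is equality and the dotted lines are 2-fold differences. The cloud is centred on equality with a median difference of 0.0053, the peaks along the axes are the 240 and 211 listed at 0, and the spread narrows toward strong peaks.

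Width went with the direction, whereas strength did not do so steadily. In the narrowest 5th of the far intergenic peaks, up to 284 bp, 13.0% were at least 2-fold lower and 22.2% higher, with a median difference of 0.09. In the widest 5th, from 541 bp, the shares were 22.3% and 12.9%, and the median was −0.13. In 5 bins of strength that hold equal numbers of listed peaks, the median difference was −0.06, 0.01, 0.07, 0.06 and −0.09 from the weakest to the strongest. Among the 210 peaks with a mean of at least 16 reads, 29 (13.8%) were lower and 17 (8.10%) higher, 121 were below 0, and the KD sum was 90.4% of the control. Other peaks under 2000 bp of that strength had 9.28% lower, 7.26% higher and a KD sum of 96.1%. By GC content the shares moved less, with 18.5% lower and 19.4% higher in the 5th poorest in GC and 14.8% and 18.7% in the richest.

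The 5 peaks with the most reads differed by less than 2-fold between groups. The peak between Nrf1 and Ube2h, chr6:30176985-30178855, had log2 means of 5.76 and 5.79 and lies 4092 bp from the start of the retinal non-coding RNA gene Rncr4. That between Npvf and Nfe2l3, chr6:51171589-51173429, had 5.83 and 5.61, and the CpG-rich one between Gm9376 and Abcc4, chr14:118436638-118438494, had 5.43 and 5.94. A peak between Ap3b1 and Tbca, chr13:94706828-94708437, had 5.61 and 5.72. The largest difference of the 5 lay between Isl1, a LIM homeobox factor of motor and sensory neurons, and Parp8, where chr13:116707733-116709466 had 5.92 in the control and 5.17 in the KD.

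Of peaks with a mean of at least 16 reads, the 5 with the largest difference downward lay in 5 different deserts. The peak between Rbm19 and Lhx5, a LIM homeobox factor (chr5:120280377-120282072), printed above, had log2 means of 5.30 and 3.26. That between Camkmt and Six3 (chr17:85481239-85481977), a factor of forebrain and eye formation, had 4.70 and 2.72, and that before Barhl2, a homeobox factor (chr5:106386088-106387246) had 5.50 and 3.56. The largest difference, from 4.75 to 2.45, was at chr11:90441874-90442802 between Hlf, a PAR bZIP factor, and Stxbp4. The last, between the pluripotency factor Klf4 and Actl7b (chr4:56415794-56416972), had 4.95 and 3.05. The peaks beside Lhx5, Six3 and Klf4 did not stand for their deserts, whose KD sums were 104%, 93.1% and 99.9% of the control. The desert before Barhl2 had a KD sum of 62.1%.

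In the other direction, a pair of peaks lay in the same desert between Sulf2, an extracellular heparan sulfate sulfatase, and Prex1, a Rac exchange factor. At chr2:166542062-166543198 the log2 mean was 1.84 in the control and 5.00 in the KD, and at chr2:166523639-166524796 it was 2.63 and 4.87. The others were beside Nkx1-1 (chr5:33528153-33529289, 2.42 and 4.91), between Tex29 and A230072I06Rik (chr8:12132185-12132796, 2.35 and 4.79) and between Insc and Sox6 (chr7:115253355-115254337, 2.97 and 4.82). The peak beside Nkx1-1 went against its desert, where most peaks were lower. The desert Sulf2–Prex1 as a whole had a KD sum of 101% of the control, with 9 peaks lower and 7 higher by at least 2-fold. Insc–Sox6 stood at 100.7% and Tex29–A230072I06Rik at 157%. The peak beyond Tex29 was 96.1% repeat-masked, and the part of that in its values was not tested.

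Among peaks listed at 0 in the KD, the control mean was highest at chr18:81834338-81834999 between Sall3, a zinc finger factor, and Galr1, a galanin receptor (4.53), at the peak beyond Fam19a5 (4.35) and at chr2:77869740-77870179 between Zfp385b and Cwc22 (4.27). Among those listed at 0 in the control, the KD mean was highest at chrX:158432179-158432757 between Cnksr2, a synaptic scaffold gene, and Rps6ka3 (4.57), at the peak in the Irx1–Irx2 block (4.55) and at chr17:27376040-27376684 between Lemd2 and Grm4 (4.40). All of them had means of 10.1 to 12.4 reads over both groups. Values above the median of 6.72 follow from choosing peaks with the highest mean in the other group.

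The 3 peaks farthest from protein-coding gene starts were weak and lay in deserts bordered by cell adhesion genes. The farthest, chr14:91460935-91461232, lay 2429450 bp from the start of Pcdh9, with log2 means of 1.51 and 2.24 and the single CpG shown above. The next, chr14:82167693-82168006 between Olfm4 and Pcdh17, had 3.29 and 1.04, and lay 25115 bp from the start of the annotated gene Gm49048. The third, chr1:102668715-102669139 between Cntnap5b and Cdh20, had 2.72 and 1.77 and was 90.6% repeat-masked.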

How the data were processed

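H3K27me3 ChIP-seq libraries of control and NeuID KD primary hippocampal neurons (6 of each by the labels, with 1 input each) were sequenced as single-end 50 bp reads. The authors used Bowtie2 for mapping to mm10, MACS2 for broad peak calling and DiffBind for the comparison. Versions, the rule for merging peaks, normalization, duplicate removal and input subtraction are not given in the sources used here, and subtraction would matter most for weak peaks. The deposited values are log2 means of normalized reads per peak for all libraries and for each group, with a floor of 0. Of the deposited columns, 3 hold the authors' own comparison (fold, p-value and FDR) and were not used. Unused per-sample columns numbered 0.

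Peaks were placed on GENCODE M21 genes and the GRCm38 sequence, and the 26 peaks on unplaced scaffolds could not be members. Distances ran from the nearest peak edge to the 5′ end of the gene record. Differences are KD minus control log2 means over peaks with both above 0, and sums and means of reads are of linear values. A count of lower or higher peaks needs a difference of at least 1 on the log2 scale. Repeats were lower-case bases of the reference. No test was possible on group means. The named regions were the 10 deserts with most peaks and the 5 densest among those with at least 5. Named peaks were the 5 with the highest mean and the 5 with the largest difference each way at a mean of at least 16. The 3 strongest listed at 0 in each group and the 3 farthest from protein-coding gene starts were named too. Members and lists were chosen with earlier results of these data known. Alternatives changed the distance, width, strength and fold limits, the gene bodies and starts used, centring and chromosomes. Scripts were tested on simulated data. The software was pandas 2.3.3 with numpy 2.4.6 in Python 3.11.15, SciPy 1.17.1 for correlations and matplotlib 3.10.9 for plots.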

Additional observations from a re-analysis of the deposited data

How the results depend on the processing

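The number of far intergenic peaks was 6917 with a distance limit of 20 kb, 3561 with 100 kb, 6056 when only protein-coding gene bodies counted, and 5012 when every protein-coding transcript start counted. Under each of these the counts at least 2-fold lower or higher stayed within 1.5 times those given, although such counts follow the number of peaks. They were 1262 lower and 1310 higher of the 6917, and 634 and 685 of the 3561. Other limits changed them by construction. The peaks lower in the KD numbered 1408 at the looser 1.5-fold limit, 303 at 4-fold and 301 with a mean of at least 8 reads. Those higher numbered 1443 at the 1.5-fold limit, 310 at 4-fold and 279 with a mean of at least 8. With a width of at least 400 bp, 72 peaks were listed at 0 in the KD and 41 in the control. Median GC content was 47.5% in the central 200 bp and 47.3% over bases not masked as repeats. With gene bodies of all types as borders, the desert with most peaks became Irx1–Gm4052 with 41. Over all far intergenic peaks the median difference was close to 0 under every alternative run, and with peaks listed at 0 included it was −0.0008. No paired analysis was possible because only group means were used, and for the same reason no library could be left out. The part of depth per library in these values was not tested.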

Other observations

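A further 947 peaks met the width and distance limits but lay over a non-coding gene body. They were slightly wider than the far intergenic peaks, with a median of 408 bp, and had a KD sum of 105% of the control. Of them, 167 (17.6%) were at least 2-fold lower and 198 (20.9%) higher, against 17.3% and 17.1% over all listed peaks. Several long non-coding genes carried runs of them, chosen here after their values were seen. The lincRNA gene 9530059O14Rik carried 23 peaks with 275 normalized reads in the control and 248 in the KD, and Gm12153 carried 22 with 209 and 184. Otx2os1, which lies beside the homeobox gene Otx2, carried 9 with 81.9 and 121.

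The 8 peaks left out by width alone were strong. The widest, chr5:101524901-101528426 between Gpat3 and Nkx6-1, measured 3526 bp, with log2 means of 6.37 in the control and 5.76 in the KD. A pair of them, between Nrf1 and Ube2h and between Npvf and Nfe2l3, lay next to the peaks with the most reads described above, with 5.66 and 5.43 in the first and 6.18 and 5.72 in the second. Differences reached 2-fold in 0 of the 8 peaks.

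On chromosome X, the 189 far intergenic peaks had 35 lower (18.5%) and 25 higher (13.2%), and the autosomal peaks 889 (18.1%) and 946 (19.2%). The KD sum was 94.5% of the control on chromosome X and 99.6% on autosomes. Whether the groups differed in the sex of their embryos is not known. Repeat-masked bases made up a median of 24.1% of the peaks on X and 11.9% on autosomes.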
